A study of Rattus norvegicus with 4 samples.

Results

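The solute carriers are a large superfamily of membrane proteins that move amino acids, sugars, ions, nucleotides and other small molecules across the plasma membrane and the membranes of organelles. Probe sets were taken as members when the platform annotation paired them with exactly 1 gene symbol that begins with Slc and a family number. Slc11a2, Slc2a1, Slc2a3 and Slc16a1 were left out, with 9 probe sets between them. That gave 172 probe sets for 116 genes in 36 carrier families, of 8740 probe sets that were not array controls and 4736 genes named by them, and every one of the 172 symbols was also the current RefSeq symbol of its Entrez identifier. Of these, 96 probe sets of 73 genes were bright enough to be tested, and 76 probe sets were not. Those 76 include every probe set of 43 genes.

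The RNA came from testes of male Sprague Dawley rats, an outbred laboratory strain. One group had received a sheep antibody against rat FSH and the other a control sheep immunoglobulin, each over 4 days, with 2 RNA samples per group, each hybridised to its own Affymetrix rat array (U34 design, part A). The labels disagree on age: the treatment protocol starts the injections on day 18 and collects on day 22, the sample descriptions give day 18, the series design starts on day 14, and antibody replicate 2 is titled as postnatal day 4, which is why that sample was grouped by its source name, as its treatment protocol also has it. The extraction protocol describes pools of about 20 organs and calls them ovaries, while each source name gives testis and 1 rat. How many animals a sample stands for is therefore not settled, and p-values measure only the spread between these RNA samples. The replicates were called independent RNA samples by the same protocol.

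FSH, follicle-stimulating hormone, acts through a cAMP-coupled receptor on Sertoli cells, the somatic cells of the seminiferous epithelium. Sertoli cells form the barrier between the blood and the maturing germ cells, so nutrients and ions for those germ cells pass through carriers in their membranes. Carriers are also found in the other cells of the testis, and the arrays measured whole tissue, in which fewer cells of a type and less RNA per cell cannot be told apart.

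The tissue label was set beside lists of marker genes. Tested probe sets were found for 9 of 9 Sertoli genes on the array, 7 of 7 Leydig genes and 8 of 9 genes of meiotic and later germ cells. Lists of other tissues also passed the filter in part, with 4 of 5 nerve genes, 3 of 3 epididymis genes and 3 of 5 kidney and liver genes. Several Sertoli and Leydig genes, such as Inha, Amh, Fshr and Star, are also known from ovary, so these counts do not settle the organ. The median intensity of an array was 39.3 and 36.6 for the controls and 39.0 and 40.5 for the antibody. Levels below are linear intensities as mean ± SD (n = 2 arrays per group). Changes are antibody minus control ± SE in units of log2(intensity + 16), where a dim probe set's change comes out too small, and adjusted p-values are from limma over all 5252 tested probe sets.

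The data showed no solute carrier that passed the adjusted threshold of 0.05. The count was 0 of 96 tested Slc probe sets, against 0.267% of all tested probe sets (14 of 5252). The carrier that came nearest was Slc6a9, the glycine transporter GLYT1, with lower values after the antibody and an adjusted p of 0.0541. Next was Slc7a1, the cationic amino acid transporter CAT1, which imports arginine, lysine and ornithine, with lower values on both of its brighter probe sets. Slc25a30, a mitochondrial carrier, was the only other tested carrier with separate groups and a change of at least 1.5-fold on the log2(intensity + 16) scale. Those 4 probe sets of 3 genes make up 4.17% of the tested carriers, against 3.54% of all tested probe sets, and all 4 were lower after the antibody; over all tested probe sets 2.27% met both criteria with lower values and 1.28% with higher values. That direction depends on the constant of 16. With a constant of 1 the same criteria gave 11 carrier probe sets, 6 higher (6.25%, against 3.48% of all) and 5 lower (5.21%, against 3.6%). The 6 higher ones belong to the dim genes Slc6a20a, Slc6a3, Slc2a4, Slc26a2 and Slc34a1 and to Slc37a4, and the fifth lower one to Slc25a14, a mitochondrial carrier named for this count. With the constant of 16, that dim Slc25a14 probe set passed the intensity filter only through the control arrays. A brighter Slc25a14 probe set from the same sequence gave 0.03 ± 0.18.

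The promoter sequences of Slc6a9 and Slc7a1 are shown because these were the carriers with the smallest p-values. Each is the 250 bases before the gene start in RefSeq, assembly GRCr8, 5′ to 3′ in the direction of the gene. Capitals mark the letters TGACG, the core of the cAMP response element, on either strand.
Slc6a9, chr5:136659826-136660075, + strand: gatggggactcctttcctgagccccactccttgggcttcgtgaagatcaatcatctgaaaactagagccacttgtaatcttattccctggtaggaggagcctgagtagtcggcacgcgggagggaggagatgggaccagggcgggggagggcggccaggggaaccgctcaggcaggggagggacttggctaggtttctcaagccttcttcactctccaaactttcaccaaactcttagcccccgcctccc
Slc7a1, chr12:11664238-11664487, + strand: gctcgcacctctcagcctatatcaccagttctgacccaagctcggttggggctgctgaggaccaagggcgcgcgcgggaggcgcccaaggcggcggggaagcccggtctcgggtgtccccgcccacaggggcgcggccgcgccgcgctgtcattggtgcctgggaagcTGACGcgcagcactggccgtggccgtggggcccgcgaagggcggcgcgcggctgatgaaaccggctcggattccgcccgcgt
The Slc7a1 window holds 1 such match, which begins 82 bases before the start, and the Slc6a9 window holds none. Neither holds the full element TGACGTCA or the letters TGATGCAA of an amino acid response element, each searched on both strands; TGACG lies within the full element. Promoter entries were matched for 98 of the 116 carrier genes, in 108 windows. The core occurred in 18.5% of those windows and in 18.2% of all 33469 windows of this length. The full element occurred in 0.926% (Slc18a2, chosen for mention after it was seen) and 1.59%, and TGATGCAA in 0 of 108 and in 0.693%. A match of letters is a description of the window and not evidence of binding.

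Across the family the changes lay near those of the whole array. The median change was 0.06 over the 96 tested Slc probe sets and 0.03 over all tested probe sets. Values were higher after the antibody for 56 of the 96 (58.3%), against 55.3% of all tested probe sets. At an unadjusted p under 0.05 there were 12 Slc probe sets (12.5%, against 8.11% of all), 5 of them higher (5.21%, against 3.98%) and 7 lower (7.29%, against 4.13%). Groups did not overlap in 38 Slc probe sets (39.6%, against 37.4%). The median absolute difference between the group means was 0.18 over the tested Slc probe sets and 0.16 over all tested probe sets. Between single arrays of 1 group it was 0.18 (controls) and 0.20 (antibody) for the carriers, and 0.19 and 0.20 for all. A mean of 2 arrays varies less than a single array, so these values do not place the group difference inside or outside the replicate spread.

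**Figure D1:**
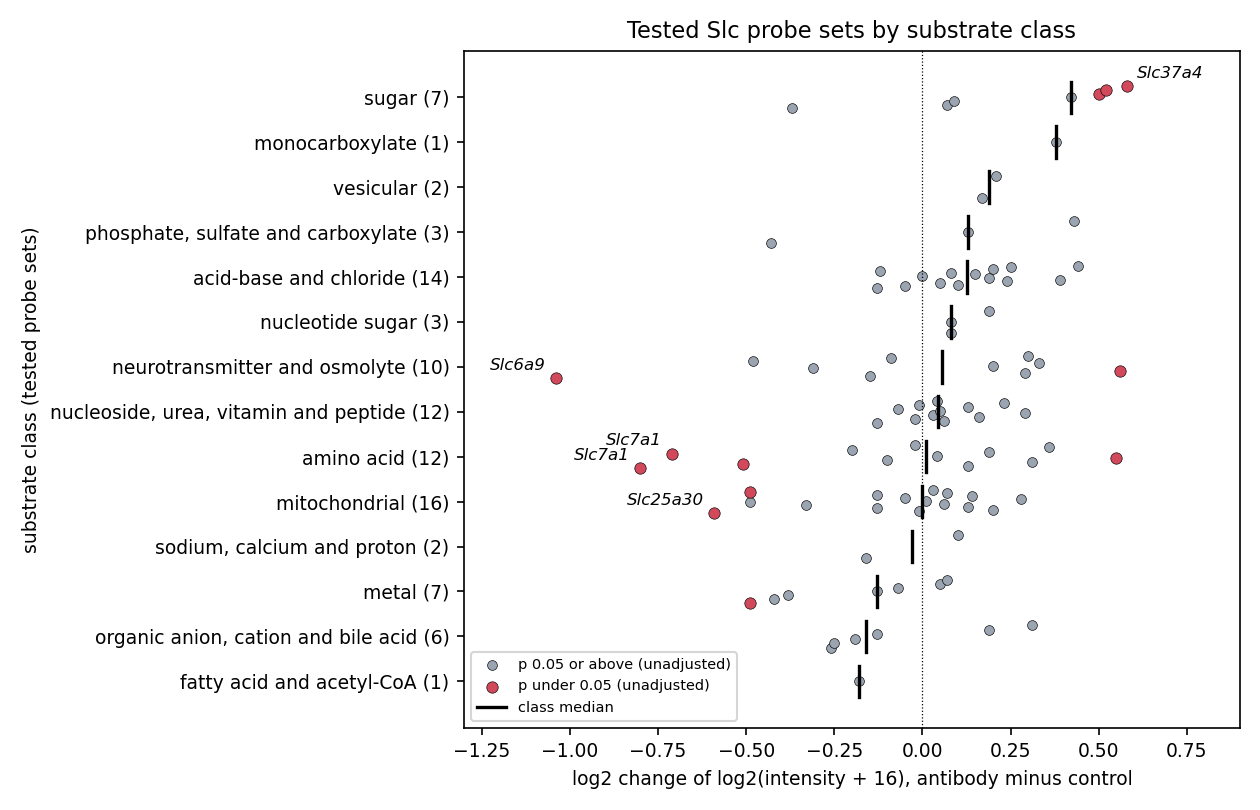
Log2 change (antibody minus control, horizontal axis) of each of the 96 tested Slc probe sets, in rows by substrate class with the number of tested probe sets in brackets; red points have an unadjusted limma p under 0.05 and vertical bars are class medians. Slc6a9 lies farthest left at −1.04, the Slc7a1 and Slc25a30 points follow, and the sugar class has the median farthest to the right at 0.42.

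Carriers of amino acids and of neurotransmitters held the largest changes. Slc6a9 takes up glycine with sodium and chloride and is known from glia, neurons and erythroid cells. The controls read 116.9 and 131.8 in intensity, and the samples given antibody 51.6 and 52.6. Both antibody arrays lay well under both controls, and the group means of 124.4 ± 10.5 and 52.1 ± 0.707 give a log2 change of −1.04 ± 0.17 (adjusted p = 0.0541). This was the only probe set annotated to the gene. The call depends on the arrays and settings used, as the plot of adjusted p by setting shows.

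Slc7a1 had 3 tested probe sets, designed from 3 different sequences. The first (U70476_at) read 179.9 and 139.5 in the controls and 85.0 and 83.3 after the antibody. The second (rc_AA957917_s_at) read 165.7 and 134.5, then 84.5 and 85.4. On both the groups were apart, with changes of −0.80 ± 0.18 (adjusted p = 0.183) and −0.71 ± 0.18 (adjusted p = 0.236). The remaining probe set (L10152_s_at) was dim, at 29.6 and 21.4 in the controls and 23.6 and 40.4 after the antibody; its groups overlapped and its change was 0.19 ± 0.25.

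Slc3a2, the heavy chain CD98 that carries several amino acid transporter light chains to the cell surface, gave discordant probe sets. One (AB015433_s_at) read 470.4 and 625.2 in the controls and 329.3 and 430.0 after the antibody, a change of −0.51 ± 0.20 (adjusted p = 0.58). The other (X89225cds_s_at) read 448.9 and 481.9, then 455.7 and 501.2, a change of 0.04 ± 0.17. Slc7a5, the light chain LAT1 that pairs with CD98 and was chosen for mention after its values were seen, had 459.6 ± 68.8 and 424.4 ± 4.81 (−0.10 ± 0.18). Slc6a20a, an imino acid transporter, lay at 21.6 in both controls and at 39.8 and 38.1 after the antibody. Its change was 0.55 ± 0.20 (adjusted p = 0.567), and it passed the intensity filter only through the antibody arrays. The 12 tested probe sets of the amino acid class split evenly, 6 higher and 6 lower, with a median of 0.01. Of these, 1 had an unadjusted p under 0.05 with a higher value (against 3.98% of all tested probe sets) and 3 with a lower one (against 4.13%).

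In the neurotransmitter and osmolyte class 5 of 10 tested probe sets were higher and 5 lower, with a median of 0.06. Besides Slc6a9, the smallest p belonged to Slc6a3, the dopamine transporter. Its tested probe set read 24.0 and 31.1 in the controls and 38.6 and 59.4 after the antibody (0.56 ± 0.23, adjusted p = 0.58); the other was too dim to be tested. Slc6a8, which imports creatine, read 199.4 and 164.0 in the controls and 142.6 and 143.5 after the antibody. Its groups were apart, and the change was −0.31 ± 0.18 (adjusted p = 0.714).

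**Figure D2:**
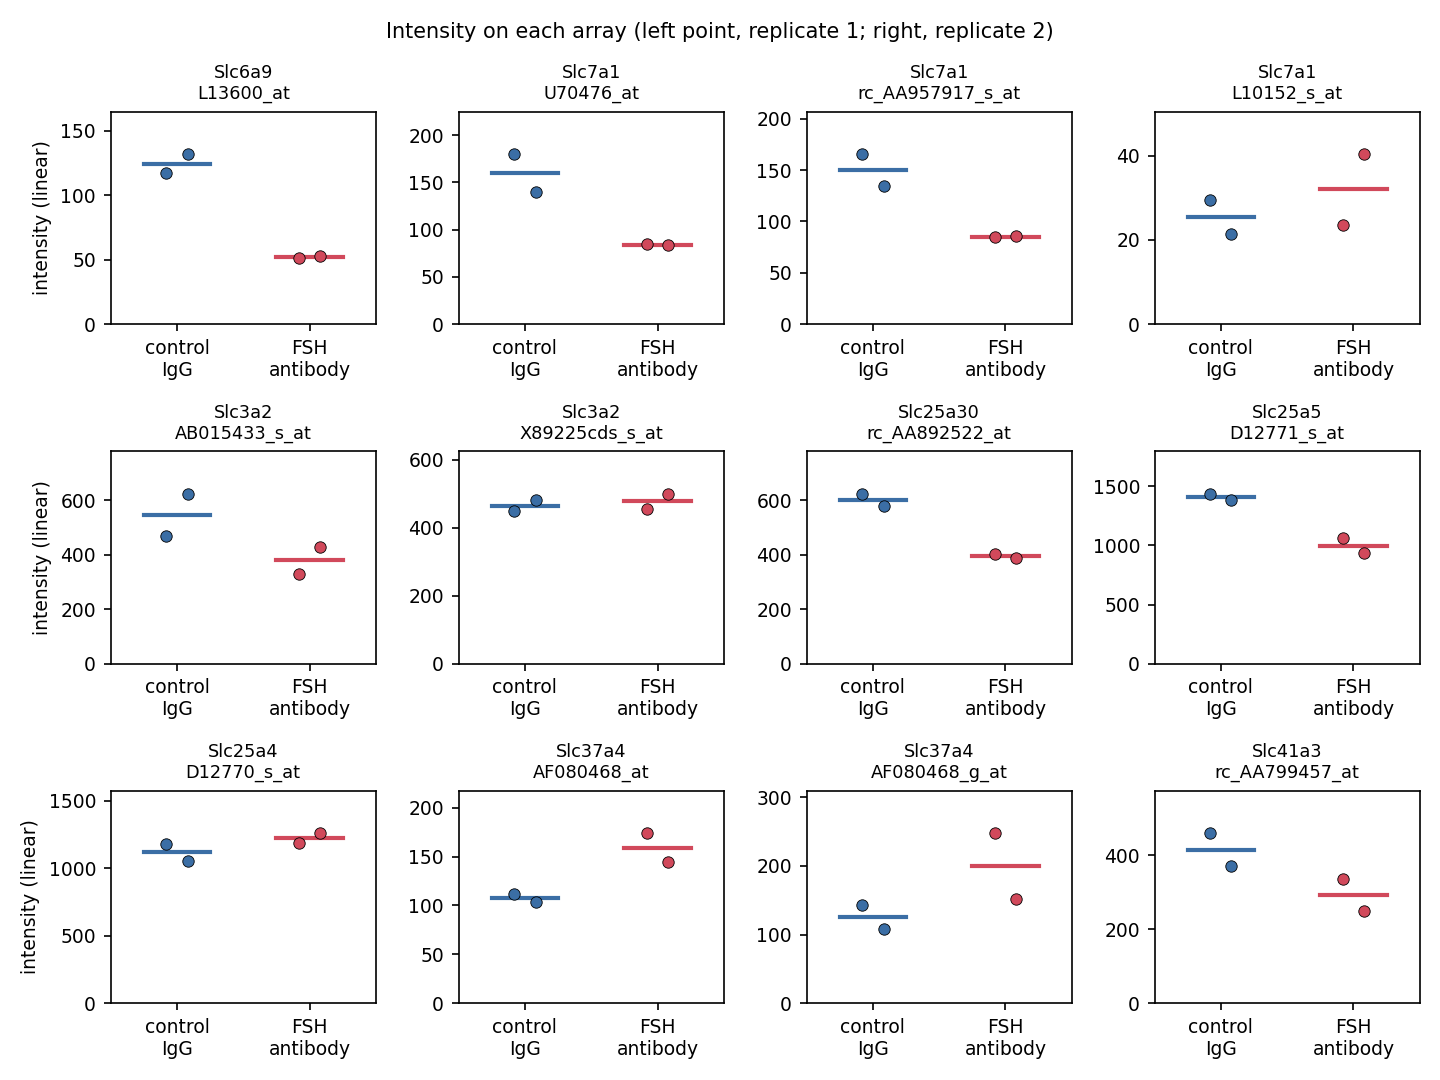
Linear intensity (vertical axis, from 0) of 12 probe sets on each of the 4 arrays, control immunoglobulin in blue and FSH antibody in red; points are single arrays and bars are group means (n = 2). Slc6a9, 2 of 3 Slc7a1 probe sets, Slc25a30, Slc25a5, Slc41a3 and Slc3a2 AB015433_s_at lie lower on both antibody arrays. Both Slc37a4 probe sets lie higher on both antibody arrays, and Slc25a4 does so narrowly. The groups overlap for Slc3a2 X89225cds_s_at and for the remaining Slc7a1 probe set.

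Enzymes that use or make some of these substrates were read from fixed lists. None of their members passed the adjusted threshold. In the creatine list 7 probe sets of 5 genes were tested. Of these, 3 had an unadjusted p under 0.05 with lower values (against 4.13% of all tested probe sets) and 1 with a higher value (against 3.98%). Gatm, the enzyme of the first step of creatine synthesis, read 726.1 and 580.2 in the controls and 459.4 and 416.5 after the antibody (−0.55 ± 0.18, adjusted p = 0.483). Gamt, the enzyme of the second step, gave −0.61 ± 0.20 (adjusted p = 0.489) and −0.19 ± 0.16 on its probe sets, with separate groups on both. The muscle creatine kinase Ckm gave −0.57 ± 0.20 and the mitochondrial kinase Ckmt1 0.52 ± 0.23. Another creatine kinase, Ckb, gave 0.11 ± 0.17 on its brighter probe set and −0.28 ± 0.19 on its dimmer one. Of 11 tested probe sets of amino acid and neurotransmitter enzymes, from 6 genes, 10 had lower values, with a median of −0.15. Over all tested probe sets 55.3% had higher values. Several of the 11 belong to Glul (changes from −0.20 to −0.02) or to Glud1 (−0.43 to 0.16). Only Got1, an aspartate aminotransferase, had an unadjusted p under 0.05 (−0.42 ± 0.18, adjusted p = 0.605). Over all tested probe sets 4.13% had such a p with lower values.

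Markers of other cell types were read beside the carriers. Alas2, the erythroid enzyme of heme synthesis, fell by 1.38 on the log2 scale (SE 0.21, adjusted p = 0.0418). It was the 1 probe set called among 5 tested of the erythroid list (against 0.267% of all tested probe sets). Of those 5, 3 were lower and 2 higher. The higher ones were Hbe1 (0.11 ± 0.28) and Car2 (0.39 ± 0.20), the latter with separate groups. The summed intensity of the 8 erythroid probe sets was 2176 and 3694 in the controls and 1976 and 2334 after the antibody, so the groups overlapped. Slc4a1, the anion exchanger band 3 of the erythrocyte membrane and itself a carrier, read 100.9 and 97.6 in the controls and 133.7 and 93.2 after the antibody on its brightest probe set (0.15 ± 0.20), and 28.0 and 43.4, then 24.8 and 37.6, on another (−0.13 ± 0.24). The 15 Leydig cell probe sets summed to 3596 and 3622 in the controls and to 2717 and 2938 after the antibody; 9 of 13 tested were lower and 4 higher. An unadjusted p under 0.05 was found for 6 with lower values (against 4.13% of all tested probe sets), all from Star, Fdx1 and Scarb1. Of these, 1 for Star was called (against 0.267% of all tested probe sets). Another 2 had such a p with higher values (against 3.98%), Cyp11a1 (0.52 ± 0.21) and 1 of Lhcgr (0.46 ± 0.18). Cyp17a1, the brightest Leydig probe set, had overlapping groups (−0.17 ± 0.17). For the 9 germ cell probe sets the sums were 1322 and 2216, then 1708 and 1159, with more variation within groups than between them. Endothelial probe sets summed to 302.1 and 330.1 in the controls and to 415.8 and 469.2 after the antibody. Of 6 tested, 5 were higher and 1 lower, and Edn1 held the largest change (1.01 ± 0.18, adjusted p = 0.0653). Macrophage probe sets summed to 223.1 and 284.8, then 264.7 and 401.0, so the groups overlapped. Of 5 tested, 4 were higher and 1 lower, a C1qb probe set (−0.71 ± 0.23) with separate groups. None was called in either list. The Sertoli sums were 11920 and 11720, then 10480 and 11170, lower on both antibody arrays without overlap. The tested Sertoli probe sets did not share that direction, with 7 higher, 6 lower and a median change of 0.03. Clu, the brightest of them, read 6776.2 and 6770.0, then 6439.6 and 7459.2 (0.03 ± 0.15). Of 13 tested Sertoli probe sets 1 was called (against 0.267% of all tested probe sets), Testin, which rose (1.56 ± 0.18, adjusted p = 0.0152). At an unadjusted p under 0.05 there were 2 higher (against 3.98% of all tested probe sets) and 3 lower (against 4.13%). The higher ones were Testin and Amh (0.52 ± 0.16, adjusted p = 0.437). The lower ones were Serpina5 (−0.99 ± 0.16, adjusted p = 0.0541), Inha on 1 of its probe sets (−0.90 ± 0.19, adjusted p = 0.122) and Shbg (−0.66 ± 0.16, adjusted p = 0.217). The part of these cell types in the carrier values was not tested.

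Mitochondrial carriers, most of which exchange metabolites across the inner mitochondrial membrane, had every gene on the array tested (16 probe sets of 12 genes). Values were higher for 8 and lower for 8, with a median of 0.00. Slc25a30, also called kidney mitochondrial carrier protein 1, read 624.3 and 577.3 in the controls and 401.1 and 386.7 after the antibody. The groups were far apart compared with the spread within them, with a change of −0.59 ± 0.16 (adjusted p = 0.314). Slc25a5, the ADP/ATP carrier ANT2 of proliferating cells, read 1439.5 and 1380.6, then 1061.0 and 937.1 (−0.49 ± 0.16, adjusted p = 0.488). Slc25a4, the ADP/ATP carrier ANT1 and chosen for mention after its values were seen, read 1179.2 and 1055.0, then 1187.3 and 1260.9 (0.13 ± 0.16); the difference between both carriers was not tested. Slc25a3, the mitochondrial phosphate carrier, had overlapping groups at 1392.7 and 1074.0 against 1344.2 and 1216.3 (0.06 ± 0.18). The single mitochondrial pore gene on the array gave a median of −0.10 over 2 probe sets.

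Sugar carriers had the highest class median among classes with more than 1 tested probe set, 0.42 over 7 tested probe sets. Of these, 6 were higher (against 55.3% of all tested probe sets). An unadjusted p under 0.05 was found for 3 of the higher ones, from Slc37a4 and Slc2a4 (against 3.98% of all). The class median was 0.07 without the intensity filter and 0.23 with a constant of 64. The 1 lower member was Slc2a5, the fructose transporter GLUT5, at 44.6 and 41.0 in the controls and 31.4 and 27.4 after the antibody (−0.37 ± 0.20, adjusted p = 0.683), with separate groups. The 7 tested probe sets come from 4 genes, and the glucose transporters Slc2a1 and Slc2a3 are not among them. Slc37a4 moves glucose-6-phosphate into the endoplasmic reticulum, where it is hydrolysed to glucose. Its probe set AF080468_at read 112.1 and 103.7 in the controls and 174.1 and 144.3 after the antibody (0.50 ± 0.18, adjusted p = 0.534). A second, AF080468_g_at, read 143.8 and 108.1, then 248.0 and 152.3 (0.58 ± 0.24, adjusted p = 0.58). As 1 source sequence served for both, they are not independent readings. Slc2a4, the insulin-responsive glucose transporter GLUT4, was dim: 30.3 and 36.3 against 51.7 and 47.8 on one probe set (0.42 ± 0.20, adjusted p = 0.634), and 26.7 and 16.8 against 38.2 and 37.3 on the other (0.52 ± 0.22, adjusted p = 0.605), which passed the filter only through the antibody arrays. Slc16a3, the lactate exporter MCT4 and the only tested member of the monocarboxylate class, read 31.0 and 26.1 in the controls and 49.6 and 34.8 after the antibody (0.38 ± 0.22, adjusted p = 0.714).

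Metal carriers had lower values on 5 of 7 tested probe sets, with a median of −0.13. Slc41a3, a magnesium transporter, read 460.8 and 371.4 in the controls and 337.3 and 248.6 after the antibody (−0.49 ± 0.20, adjusted p = 0.58), with groups that were apart by less than the spread within either. Slc40a1, the iron exporter ferroportin, read 51.4 and 51.0, then 34.2 and 37.4 (−0.38 ± 0.19, adjusted p = 0.659) on one probe set, and its second gave −0.13 ± 0.20 with overlapping groups.

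Acid-base and chloride carriers were tested on 14 probe sets of 9 genes, 10 higher and 4 lower, with a median of 0.12. None had an unadjusted p under 0.05. Slc4a2, the chloride/bicarbonate exchanger AE2, gave 0.44 ± 0.20 (adjusted p = 0.615) and 0.10 ± 0.20 on probe sets from the same sequence. The first read 310.3 and 240.3 in the controls and 423.2 and 335.0 after the antibody. Slc26a2, a sulfate transporter whose loss impairs cartilage, was dim at 20.1 and 21.7 against 28.4 and 36.9 (0.39 ± 0.22) and passed the filter only through the antibody arrays.

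The remaining classes held no probe set with an unadjusted p under 0.05. The class of nucleoside, urea, vitamin and peptide carriers had a median of 0.04 over 12 tested probe sets, with Slc23a3 of the ascorbate family at 0.29 ± 0.19, the urea transporter Slc14a2 at 0.23 ± 0.17 and the multivitamin transporter Slc5a6 at −0.01 ± 0.19 and −0.07 ± 0.19. Organic ion carriers had a median of −0.16 over 6, among them the carnitine importer Slc22a5 (−0.25 ± 0.23), Slc22a7 (−0.13 ± 0.18) and the bile salt carrier Slc10a2 (0.31 ± 0.28). Slc10a2 read 19.4 and 24.2 in the controls and 20.0 and 45.0 after the antibody, and passed the filter only through the antibody arrays. The nucleotide sugar family (3 probe sets) had Slc35a1, the CMP-sialic acid carrier of the Golgi, at 0.19 ± 0.18 and Slc35b1 at 0.08 on both of its probe sets. The fatty acid transport protein Slc27a1 was at 490.6 ± 4.03 and 432.5 ± 0.495, a change of −0.18 ± 0.16 (adjusted p = 0.849).

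Some carriers varied more within a group than between groups. Slc8a1, the sodium/calcium exchanger NCX1, read 138.0 and 59.0 in the controls and 98.1 and 65.3 after the antibody (−0.16 ± 0.31). Slc8a2, a second exchanger of this family, read 52.4 and 54.3, then 39.3 and 83.2 (0.10 ± 0.26). The phosphate carriers were likewise uneven. Slc34a1 gave −0.43 ± 0.31 on one probe set and 0.43 ± 0.22 on another, while Slc20a2 gave 0.13 ± 0.20. The vesicular acetylcholine transporter Slc18a3 gave 0.17 ± 0.19 and 0.21 ± 0.20. Of 20 genes with several tested probe sets, 10 had all changes of one sign and 10 did not.

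The 76 carrier probe sets that were too dim to be tested had at most 44.7 on any array. Of these, 56 (73.7%) had a higher mean after the antibody, and so did 72.6% of all 3488 probe sets below the filter. The median over these carriers was 7.95 and 6.3 in the controls and 8.3 and 10.6 after the antibody. For all such probe sets it was 6.7 and 6.2, then 7.6 and 9.0. The whole dim end of the antibody arrays, and above all of replicate 2, thus lay higher. The same slope reached the tested probe sets: in the dimmest 1750 probe sets the median change was 0.09 over all and 0.10 over 37 carriers, and in the brightest 1751 −0.00 over all and 0.04 over 22 carriers. The higher values of dim carriers such as Slc2a4, Slc6a20a, Slc6a3 and Slc26a2 stand beside this shift, and its part in them was not tested. At the intensities of Slc6a9 and Slc7a1, in the middle 1751 probe sets, the median change over all was 0.02.

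**Figure D3:**
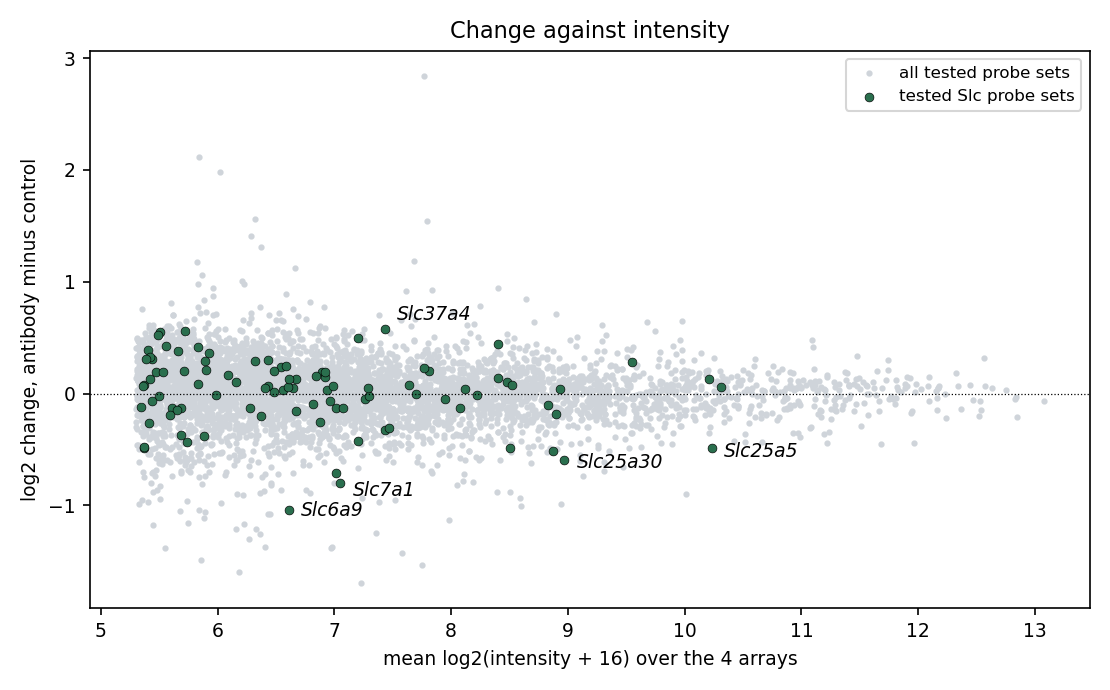
Log2 change (antibody minus control, vertical axis) against the mean log2(intensity + 16) over the 4 arrays (horizontal axis) for all 5252 tested probe sets in grey and the 96 tested Slc probe sets in green. The carriers lie within the spread of the other probe sets at all intensities, with Slc6a9 at −1.04 the lowest of them.

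Other transport genes from fixed lists gave no called member. Of 6 tested water channel probe sets the one for Aqp8 read 222.6 and 397.0 in the controls and 125.1 and 79.6 after the antibody (−1.43 ± 0.28, adjusted p = 0.0948), and the other 5 were higher. Of 10 tested ABC transporter probe sets 2 had an unadjusted p under 0.05, both higher (against 3.98% of all tested probe sets). Among them was Abcc9 at 0.81 ± 0.21 (adjusted p = 0.249), whose other tested probe set gave 0.03 ± 0.20. The sodium pump, which sustains the sodium gradient that many carriers use, had a median of 0.01 over 8 tested probe sets, and the calcium pumps −0.01 over 8.

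The standing of the carriers with the largest changes varied with the arrays. Without antibody replicate 1 the adjusted p of Slc6a9 was 0.00301, and without antibody replicate 2 it was 0.00299. Without control replicate 1 it was 0.355 and without control replicate 2 it was 0.633, while the change itself stayed between −1.12 and −0.96. The first Slc7a1 probe set had an adjusted p of 0.036 without antibody replicate 1. The second Slc37a4 probe set passed without antibody replicate 2 (0.91, adjusted p = 0.0162), with antibody replicate 1 alone standing for the treatment, and an Slc34a1 probe set (AB013455_g_at) passed without antibody replicate 1 (−0.92, adjusted p = 0.0328). With 1 array left out a single array stands for its group and is assumed to vary like the other group. Of the settings that kept all 4 arrays, Slc6a9 passed with a filter at the 60th percentile (0.0404) and with the replicate number as a block (0.0175).

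**Figure D4:**
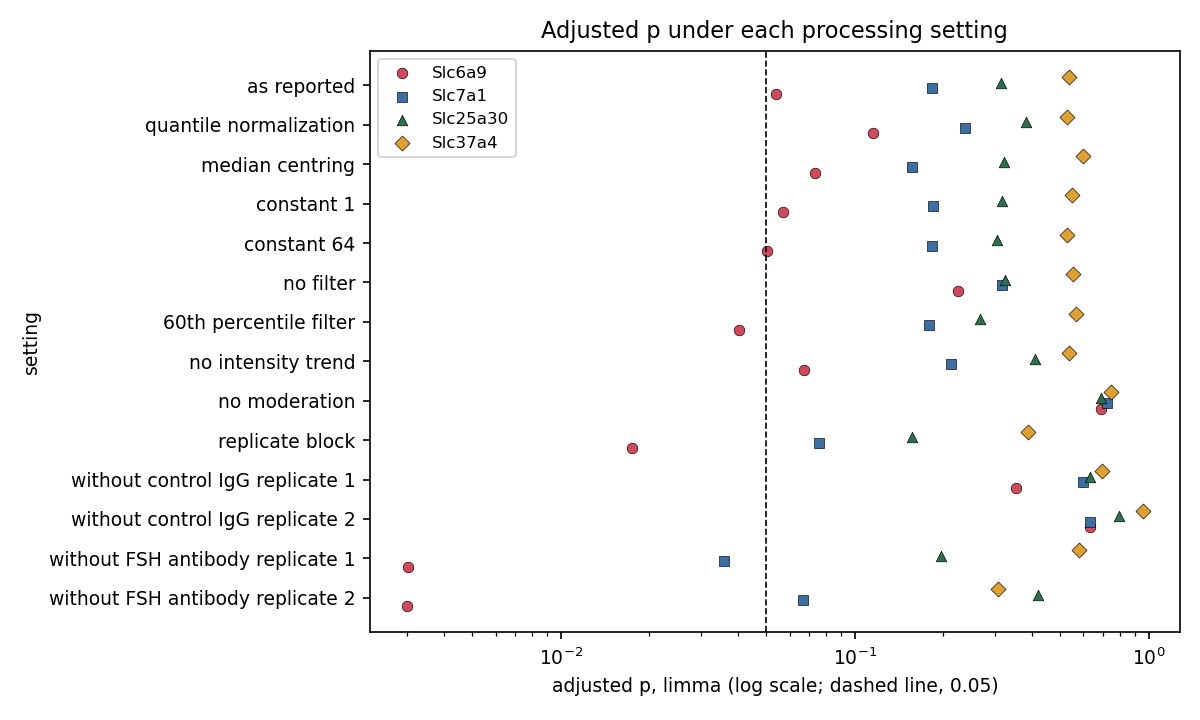
Adjusted limma p (horizontal axis, log scale) of 1 probe set each of Slc6a9, Slc7a1 (U70476_at), Slc25a30 and Slc37a4 (AF080468_at) under each processing setting (vertical axis); the dashed line marks 0.05. Slc6a9 lies left of the line with the 60th percentile filter, the replicate block and without either antibody array, and the Slc25a30 and Slc37a4 probe sets lie right of it in all settings shown.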

How the data were processed

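RNA from rat testis was measured on 4 arrays, 2 per group. The authors deposited 1 linear intensity for each probe set; per the labels' protocols labelling followed the standard procedure of the array's maker, while the sources used here do not name the software, background correction or scaling. A mean trimmed by 2% at either end came to 125 on all 4 arrays, so the values had been scaled before deposit, and no further normalization was applied. No detection calls were used. Values were analysed as log2(intensity + 16). Of 8799 probe sets, 59 controls were left out of tests, and 5252 whose mean over the arrays reached the 40th percentile (an intensity of about 23.4) were tested. Groups, taken from the source names, were compared by limma 3.58.1 (lmFit, then eBayes with a trend on intensity; R 4.3.3), with two-sided p-values adjusted by Benjamini-Hochberg and called under 0.05. Of the 96 tested carrier probe sets, 10 had 1 group mean below the filter level. Carriers were put into 14 substrate classes by family number, with 9 genes moved by their known substrate. No set test was run. Named carriers were those called, those with separate groups and a 1.5-fold change, the 2 genes of smallest p and the brightest gene of each class, Slc6a9, Slc4a1 and any gene whose probe sets disagree in sign with one past 1.5-fold. The members, classes, lists and tests were chosen with earlier results of these data known. The fit was tested on simulated data. Alternatives covered normalization, the constant, the filter, the variance model, the replicate block and leaving out each array. Promoters came from RefSeq, assembly GRCr8; in 1950 of 1950 overlaps of windows on opposite strands the sequences were reverse complements.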

Additional observations from a re-analysis of the deposited data

How the results depend on the processing

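The count of 0 carriers called became 1 (Slc6a9) with the 60th percentile filter and with the replicate block, and lay between 0 and 3 with an array left out. Over all tested probe sets the 14 calls became 0 with quantile normalization, without a filter and without moderation, 4 with median centring and 39 with the replicate block, and lay between 0 (without either control array) and 154 (without antibody replicate 1; 93 without antibody replicate 2). Same-numbered arrays did not deviate together across the 5252 probe sets taken as a whole (r = 0.00386). A deviation shared by only some probe sets could be missed by this value, and what the block reflects was not tested. Carriers with separate groups and a 1.5-fold change numbered 4, all lower, against 11 with a constant of 1 (6 higher and 5 lower), 2 with 64, and 8 to 11 with an array left out. Those with an unadjusted p under 0.05 numbered 12, against 20 without a filter. The cause of these differences was not tested.

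Class medians moved as follows. The metal median of −0.13 was −0.18 with quantile normalization, −0.17 with centring, −0.18 with a constant of 1, −0.06 with 64, −0.19 with the 60th percentile filter, and −0.19 to −0.13 with an array left out. The sugar median of 0.42 was 0.55 with a constant of 1, 0.23 with 64 and 0.07 without a filter. The fatty acid value of −0.18 was −0.15 with quantile normalization, −0.22 with centring, −0.16 with 64 and 0.17 without a filter. Without a filter the monocarboxylate median was 0.03 and the organic ion median 0.12, and with the 60th percentile filter the amino acid median was −0.36. With an array left out the organic ion median ran from −0.26 to 0.01 and the acid-base median from 0.05 to 0.19.

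Of 43 named probe sets, 27 kept their direction in every setting run. Median centring turned Slc3a2 X89225cds_s_at to −0.01. With an array left out, the changes that turned ran from −0.03 to 0.10 for that probe set, −0.03 to 0.20 and −0.02 to 0.19 for Slc35b1, −0.19 to 0.16 and −0.28 to 0.13 for Slc5a6, −0.68 to 0.36 for Slc8a1, −0.33 to 0.52 for Slc8a2, −0.12 to 0.25 for Slc25a3, −0.08 to 0.38 and −0.35 to 0.09 for Slc4a1, −0.12 to 0.37 for Slc20a2, −0.53 to 0.03 for Slc22a5, −0.26 to 0.00 for Slc22a7, −0.14 to 0.34 for Slc4a2 J05166_at, −0.92 to 0.06 for Slc34a1 AB013455_g_at and −0.06 to 0.45 for Slc7a1 L10152_s_at. With 2 arrays per group, their number limits the precision.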
